A study of Mus musculus with 2 samples.

Results

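The genes described here encode the proteins of the mitochondrial ribosome. They were taken as all genes with a symbol of the form Mrpl or Mrps followed by a number, through every probe set (the short probes that together read 1 transcript) annotated to exactly 1 gene. This gave 76 of the 18193 genes on the array, measured by 156 probe sets, with 47 genes of the large (Mrpl) and 29 of the small (Mrps) subunit. Their signals were compared between 1 Affymetrix array of control T cells and 1 array of T cells after contact with retinal pigment epithelium (RPE), a pigmented layer of cells that supports the photoreceptors. Both samples came from male mice of C57 BL/6 background aged 6 weeks, and no genotype or agent besides the RPE exposure is named. The title of the control says CD4 T cells, whereas that of the exposed sample says T cells and its tissue field names primary cultured RPE. How long the cells were exposed, how they were activated or how many animals were pooled is not stated in the labels.

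Mitochondria carry their own ribosomes, which translate the few messenger RNAs made from mitochondrial DNA, all of them for subunits of the respiratory chain and ATP synthase. The ribosomal RNAs come from mitochondrial DNA, but every protein of the mitochondrial ribosome is encoded in the nucleus, made in the cytosol and imported. The large subunit joins amino acids and releases the chain into the inner membrane, and the small subunit binds and decodes the messenger RNA. T cells enlarge their mitochondria after activation, and inhibitors of mitochondrial translation limit the function of activated T cells.

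Each group was 1 array, so no test was possible and each value stands for that array alone. Signals are the deposited linear intensities, and a difference is log2 of the exposed signal minus log2 of the control signal. A gene is given by its brightest probe set over both arrays (by mean log2 signal), and signals under a floor (the median of each array, 15.9 in control and 16 in exposed cells) were set to it. Genes at or above the floor on at least 1 array numbered 11015, and 10011 were so on both. T-cell markers had like signals on both arrays, with summed signals of 14535 and 15108 over the 10 of 12 listed genes on the array and a median difference of -0.01. Of these genes 4 were higher and 6 lower in the exposed sample, from Cd4 (287.0 and 271.1, -0.08) to Cd3g (1520 and 1757, 0.21). Cd3d was also higher (3073 and 3506, 0.19), and the signals of Cd3e were 770.9 and 763.9. Markers of other cells moved with the exposure: 9 of 10 B-cell genes (median -0.51, summed signals of 2005 and 1319) and 11 of 14 macrophage and dendritic-cell genes (median -0.42, summed signals of 5099 and 3926) were lower in the exposed sample. Of those 2 lists only Cr2, Itgam and Marco were under the floor on both arrays. The largest signals of the macrophage and dendritic-cell list were those of Cd74 (1448 and 1250) and H2-Aa (1438 and 1081). Its 3 higher genes were dim: Csf1r (29.1 and 31.4), Adgre1 (15.2 and 17.8) and Fcgr1 (12.6 and 17.0). Whether the 2 lists moved separately, and the part of such cells in the values below, was not tested. Of 17 RPE markers, 14 were under the floor on both arrays and none was above it on both, with signals of 5.3 and 2.3 for Rpe65 and 7.0 and 7.5 for Rlbp1.

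Mitochondrial ribosomal protein genes differed little between the arrays, and more of them leaned towards the RPE-exposed sample than away from it. All 76 were above the floor on both arrays, with signals from 112.6 to 1170 in control and from 111.4 to 1333 in exposed cells. Signals were higher in exposed cells for 49 genes and lower for 27, against 48.3% higher and 51.5% lower among all genes compared. Among the 5407 genes whose mean signal lay between those of the dimmest and brightest members, 48.8% were higher. The median log2 difference of the members was 0.07, against -0.01 for all genes compared, and the SD over the members was 0.16. Some probe sets are marked _x, _s or _a in their names because they can read related sequences or several transcripts. With these shared-probe sets left out, 60 genes remained and their median was 0.03.

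No member reached 1.5-fold in either direction, a size reached upwards by 3.11% and downwards by 3.81% of all genes compared. It was rarer among the 5407 genes in the members' signal range, where 60 reached it upwards and 87 downwards. At a smaller size, 6 members were at least 25% higher and 0 at least 20% lower (the same ratio downwards), against 10.8% and 12.6% of all genes compared and 6.44% and 7.4% of genes in the members' signal range. The 6 are thus near the background share. In 45 of the 76 genes the signals lay within 1.1-fold of each other.

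**Figure D1:**
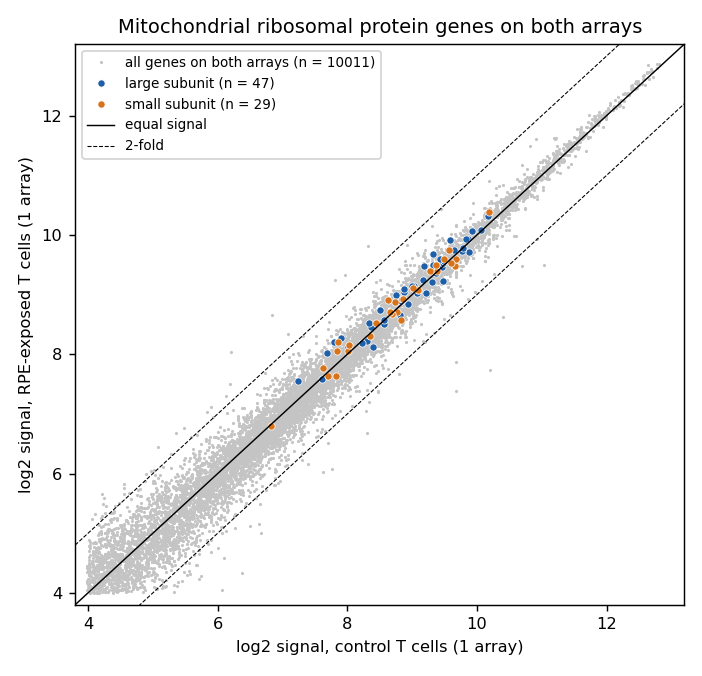
Log2 signal of each gene in control (x axis) and RPE-exposed T cells (y axis), 1 array each. Grey points are the 10011 genes at or above the floor on both arrays, coloured points are the 47 large-subunit and 29 small-subunit genes, the solid line marks equal signals and the dashed lines 2-fold. All 76 members lie inside the 2-fold lines, between signals of 111.4 and 1333.

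Some sequence features, which the choice of genes did not use, were more frequent in the promoters of these genes than among all protein-coding genes. RefSeq promoters (GRCm38.p6, 250 bases before to 50 after the start) were at hand for 67 of the 76 members, 3 of them with more than 1 listed start, and for 17491 protein-coding genes in all. They were searched on both strands for the letters of 7 motifs. For the factor NRF1 these were GCGCANGCG, for the ETS family CCGGAAG and for YY1 ATGGCGGC. The E-box, read by Myc and related factors, was taken as CACGTG, the GC box as GGGCGG and the TATA box as TATAAA, beside the CCAAT box. NRF1 and the ETS factor GABP are known regulators of nuclear genes for mitochondrial proteins. A match is a run of letters, not a measured binding site.

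The ETS letters stood in 25 of 67 member genes (37.3%), against 12.9% of all protein-coding genes and 22.5% of the 8013 with a promoter that were above the floor on both arrays. The NRF1 letters stood in 15 (22.4%, against 9.63% and 16.6%) and the YY1 letters in 11 (16.4%, against 3.50% and 6.31%). At least 1 of the 3 was found in 40 members (59.7%), against 22.6% of all protein-coding genes and 38.7% of those above the floor. The shares of the E-box (7.46%, against 8.91% and 12.3%) and CCAAT letters (38.8%, against 42.3% and 43.2%) were lower than in both sets. TATA letters were found in 7.46% of members, against 14.8% and 8.19%, and GC-box letters in 50.7%, against 49.2% and 69.9%. The 7 were kept from 14 spellings after all had been counted. A longer NRF1 spelling of 10 letters, counted first, stood in 17.9% of members, against 7.17% and 12.8%. A longer ETS spelling of 8 letters stood in 17.9%, against 5.69% and 10.3%, and 2 other spellings for YY1 in 7.46% and 11.9%, against at most 1.65% and 2.95%. Matches to different motifs overlapped in 2 places in the members' promoters.

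Of the 15 members with NRF1 letters 8 were higher in exposed cells, and the highest of them, such as Mrps9 (0.34) and Mrpl45 (0.24), are not shown. The 5 shown were chosen with the members' values in view and lean to the low end. Among them, 3 are among the lowest of the large subunit, and Mrps21 is among the lowest of the small. The next stretches lie upstream of these 5 members, and the capitals mark the NRF1 letters on either strand. They are chr7:105811093-105811172 on the minus strand for Mrpl17, chr16:84735326-84735405 on the minus strand for Mrpl39, chr13:14613081-14613160 on the minus strand for Mrpl32, chr11:120484521-120484600 on the plus strand for Mrpl12 and chr3:95871561-95871640 on the minus strand for Mrps21.
Mrpl17: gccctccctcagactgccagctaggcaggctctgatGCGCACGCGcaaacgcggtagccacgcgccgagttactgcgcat
Mrpl39: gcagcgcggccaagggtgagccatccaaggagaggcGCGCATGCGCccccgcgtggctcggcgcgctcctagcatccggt
Mrpl32: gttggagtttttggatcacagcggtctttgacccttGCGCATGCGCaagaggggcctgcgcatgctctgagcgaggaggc
Mrpl12: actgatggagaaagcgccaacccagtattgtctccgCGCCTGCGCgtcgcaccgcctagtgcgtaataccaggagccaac
Mrps21: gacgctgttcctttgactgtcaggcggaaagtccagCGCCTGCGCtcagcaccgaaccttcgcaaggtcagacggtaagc

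The ETS letters, or their complement, are in capitals upstream of 3 further members from either end of the range, at chr11:115403672-115403751 on the plus strand for Mrpl58, chr14:54426825-54426904 on the plus strand for Mrpl52 and chr14:20393522-20393601 on the minus strand for Mrps16, for which 2 starts are listed.
Mrpl58: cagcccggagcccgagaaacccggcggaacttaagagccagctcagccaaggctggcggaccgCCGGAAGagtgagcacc
Mrpl52: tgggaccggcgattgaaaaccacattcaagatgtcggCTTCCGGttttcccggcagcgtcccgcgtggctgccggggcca
Mrps16: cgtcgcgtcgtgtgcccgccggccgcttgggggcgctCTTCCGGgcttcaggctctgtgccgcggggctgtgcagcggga

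The letters did not sort the members clearly by their difference. Members with any of the 3 motifs had a median difference of 0.08 and the 27 without them 0.07. The 15 with NRF1 letters had a median of 0.02, with 8 of 15 higher, and the 52 without had 0.07, with 34 higher. With the longer NRF1 spelling the median was -0.04 for the 12 members that held it, with 5 of 12 higher. The 55 without it had 0.08, with 37 higher. A 10-letter spelling without the free letter N gave -0.11 for 3 members and 0.07 for the other 64. The median with NRF1 letters was thus the lower in each spelling, and its sign changed with the spelling. Such a gap was not particular to NRF1. Members with CCAAT letters had a median of 0.01, with 14 of 26 higher, and the 41 without had 0.09, with 28 higher. For the E-box the medians were 0.01 with and 0.07 without, and for the longer ETS spelling 0.0013 and 0.08. For the ETS, YY1, GC-box and TATA letters used, both medians lay between 0.07 and 0.09. None of these contrasts was tested. Among the 15 with NRF1 letters, Mrpl17, Mrpl39, Mrpl32 and Mrps21 were on the lower side and Mrps9, Mrpl45 and Mrpl9 on the higher side.

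Member genes also often stood head to head with another gene. A protein-coding gene on the opposite strand started within 1000 bases upstream of 23 of the 67 members (34.3%), against 8.48% of all protein-coding genes and 14.7% of those above the floor on both arrays. A pair of them joined both subunits. Mrpl46 and Mrps11 start 42 bases apart, and the interval between them, at chr7:78783090-78783130, is shown on the plus strand, the strand of Mrps11.
Mrps11: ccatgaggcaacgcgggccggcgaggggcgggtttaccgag

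No NRF1, ETS or YY1 letters lay inside that interval, though GC-box letters did. Mrps11 still counts among the members with YY1 letters, through a match in its promoter that is not inside the interval. Mrps11 had signals of 230.2 in control and 265.6 in exposed cells, and Mrpl46 had 329.6 and 352.5, so both were slightly higher after exposure (0.21 and 0.10). Among the other neighbours, Mrps12 stands against Sars2, the mitochondrial seryl-tRNA synthetase, 147 bases apart, with differences of 0.10 and 0.09. Mrpl43 stands against Twnk, the helicase of mitochondrial DNA, with 0.11 and 0.04. Of the 20 neighbours above the floor on both arrays, the median difference was 0.04 and 11 had the sign of their member, with Mrpl46 and Mrps11 counted as each other's neighbour. Only the nuclease gene Eme1, beside Mrpl27, lay outside its like-level range (0.58, signals of 97.5 and 145.5), the central 95% of differences among genes in the same 1 of 20 bands of mean signal. Tmem63b, beside Mrpl14, passed the floor only after exposure (9.9 and 47.7), at least 3-fold higher against the control array's floor.

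**Figure D2:**
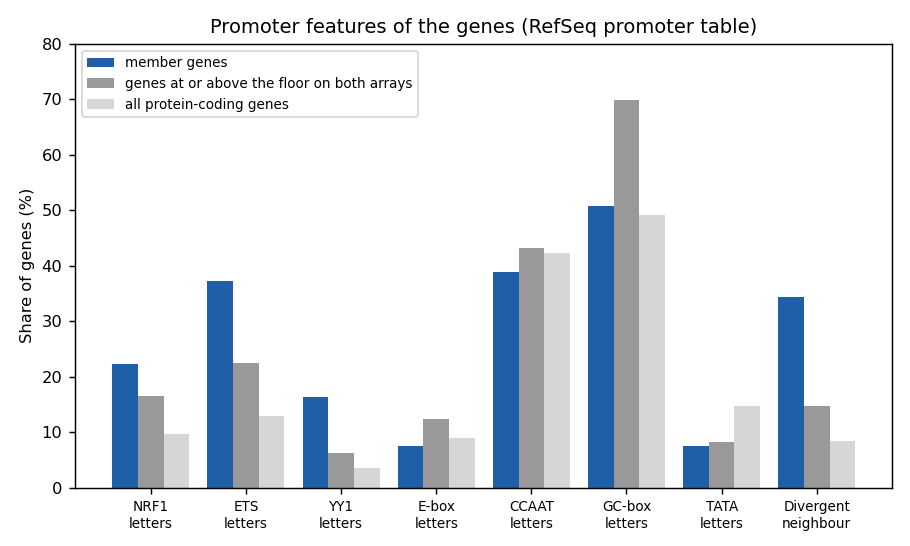
Share of genes (y axis, %) whose RefSeq promoter holds the letters of each of 7 motifs, and share with a divergent neighbour within 1000 bases. Blue bars are the 67 members with a promoter, dark grey bars genes above the floor on both arrays and light grey bars all 17491 protein-coding genes. The blue bar is the tallest of its 3 for ETS (37.3%), NRF1 (22.4%), YY1 (16.4%) and divergent neighbours (34.3%), while for the GC box it stands at 50.7%, below the dark grey bar at 69.9%.

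Large-subunit genes had a median difference of 0.08, with 32 of 47 higher and 15 lower in exposed cells. It was 0.04 without shared-probe sets and 0.11 after median centring, which raised every gene by the same amount. The 6 highest were Mrpl37, Mrpl54, Mrpl58, Mrpl49, Mrpl20 and Mrpl38. Mrpl37, with no counterpart in bacterial ribosomes, had signals of 221.1 in control and 295.6 in exposed cells. That is 1.34-fold or 0.42, just above its like-level range of -0.46 to 0.41. It was the only member outside that range, which 2.6% of genes exceeded upwards and 2.6% downwards. This place hangs on whether a signal equal to the floor counts as reaching it, as it does here: with genes counted only strictly above the floor, the first form tried, the range ran to 0.4222 against a difference of 0.4189, and 0 members lay outside their ranges. It rested on 1 probe set, marked _s.

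Mrpl54 went from 238.0 to 310.0 (0.38), within a range of -0.47 to 0.41, and its other probe set was under the floor (6.4 and 4.3). Mrpl58, a peptidyl-tRNA hydrolase that frees chains from stalled ribosomes as well as being a subunit, went from 638.5 to 819.1 (0.36), with its other probe set under the floor (8.2 and 13.3). Mrpl49 went from 206.4 to 260.2 (0.33), and its second probe set from 158.9 to 191.1 (0.27). None of these 3 has a counterpart among bacterial ribosomal proteins. They were named because they are among the 6 highest, so their direction was fixed by that choice. Mrpl52, which also lacks such a counterpart, was lower in exposed cells (-0.19).

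Mrpl20, the counterpart of a bacterial protein needed early in assembly, went from 770.7 to 966.9 (0.33). Mrpl38 went from 150.7 to 187.8 (0.32), but its dim second probe set gave 22.8 and 21.0 (-0.12). Mrpl4, which lines the tunnel through which new chains leave, went from 583.3 to 710.6 (0.28). Of these 3, Mrpl20 and Mrpl4 had 1 probe set each.

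At the base of the stalk that recruits translation factors, Mrpl11 went from 431.3 to 510.1 (0.24) and its other 2 probe sets above the floor gave 0.47 and 0.16. Mrpl10, which holds the stalk proteins, went from 511.6 to 562.7 (0.14). Mrpl12, the stalk protein itself, which also binds the mitochondrial RNA polymerase, had 1069 and 1082 (0.02). Mrpl45, which ties the ribosome to the inner membrane, went from 362.4 to 427.3 (0.24). These 4, described for their roles, were all within their like-level ranges.

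The 6 lowest of the large subunit were Mrpl33, Mrpl17, Mrpl52, Mrpl39, Mrpl19 and Mrpl32. Mrpl33, counterpart of a small bacterial protein, went from 337.0 to 276.9 (-0.28, range -0.47 to 0.41), with a second probe set near the floor (10.7 and 16.3). Mrpl17, which lies near the tunnel exit, went from 708.3 to 596.7 (-0.25), and its other 2 probe sets were under the floor. Mrpl52, with no bacterial counterpart, went from 592.1 to 520.1 (-0.19), and 1 of its 4 probe sets leaned the other way, at 0.21.

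Mrpl39, related in part to a tRNA synthetase, went from 943.2 to 837.6 (-0.17), and its second probe set gave -0.20. Mrpl19 went from 449.7 to 406.0 (-0.15), with all 3 probe sets below 0. Mrpl32, whose maturation by a mitochondrial protease is needed for assembly, went from 634.6 to 589.9 (-0.11). All 6 were lower in exposed cells and within their like-level ranges.

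**Figure D3:**
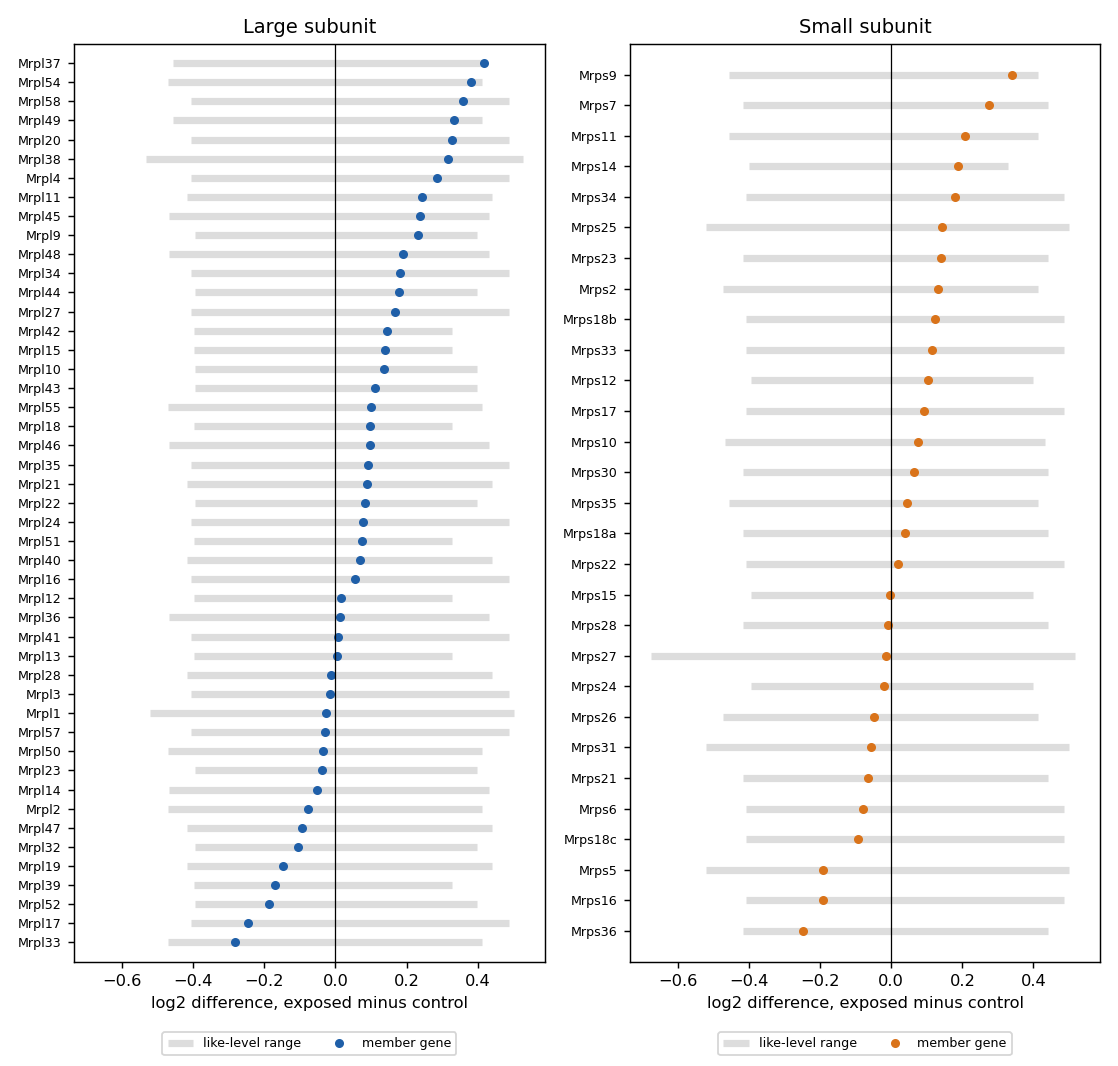
Log2 difference (x axis, RPE-exposed minus control, 1 array each) of every large-subunit (left) and small-subunit gene (right), in order. Points are genes and grey bars the like-level range. Differences run from -0.28 for Mrpl33 to 0.42 for Mrpl37, the only point past its bar, which it does not pass when genes must lie strictly above the floor.

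Small-subunit genes had a median difference of 0.05, with 17 of 29 higher and 12 lower. It was 0.03 without shared-probe sets and 0.07 after median centring, which raised every gene alike. The 6 highest were Mrps9, Mrps7, Mrps11, Mrps14, Mrps34 and Mrps25. Mrps9, a conserved protein of the head of the subunit, went from 232.6 to 294.2 (0.34). Its other 3 probe sets above the floor gave 0.28, 0.03 and -0.06, so its size depended on the probe set. Mrps7, also of the head, went from 396.4 to 479.6 (0.27, 1 probe set).

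Mrps14 went from 1170 to 1333 (0.19), and its second probe set above the floor gave 0.40. Mrps34, with no bacterial counterpart, went from 757.2 to 857.0 (0.18), and Mrps25 from 197.8 to 218.2 (0.14). Mrps12, part of the decoding centre, went from 513.8 to 551.5 (0.10). All of these were higher in exposed cells and within their like-level ranges.

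The 6 lowest of the small subunit were Mrps36, Mrps16, Mrps5, Mrps18c, Mrps6 and Mrps21. Mrps36, the lowest, went from 453.2 to 381.8 (-0.25). Despite its symbol it is now placed in the alpha-ketoglutarate dehydrogenase complex of the citric acid cycle and not in the ribosome. Mrps16, needed for assembly of the small subunit, went from 813.1 to 711.6 (-0.19). Mrps5, at the entry of the messenger RNA channel, went from 227.1 to 198.8 (-0.19), with its 5 probe sets running from -0.62 to 0.09.

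Mrps6 had 777.1 and 735.8 (-0.08), but its second probe set gave 0.16. Mrps21 had 436.1 and 416.5 (-0.07), and its second probe set gave -0.17. The 3 counterparts of bacterial S18 differed in sign by small amounts. Mrps18a had 405.0 and 416.2 (0.04), Mrps18b 660.4 and 719.0 (0.12), and Mrps18c 822.0 and 769.7 (-0.09), each with 1 probe set. In ribosome structures, Mrps18a and Mrps30 (0.06) belong to the large subunit. With these 2 moved there and Mrps36 left out, the medians were 0.08 for the large and 0.06 for the small subunit.

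Probe sets of the same gene give the only repeat measurement in these data, and they share the RNA and the array. Of the 156 probe sets, 131 reached the floor on both arrays, 3 on a single array and 22 on none. In 33 genes at least 2 were above it on both, and the pooled SD of their differences was 0.19, against 0.24 over 4779 genes of the whole array. The probe sets leaned the same way in 20 of the 33, upwards in 12 and downwards in 8, and disagreed in 13.

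Among genes that leaned upwards in all probe sets were Mrpl9 (0.23, 0.43 and 0.20), Mrpl11, Mrpl49 and Mrps14. Among those that disagreed was Mrpl15, whose brightest probe set gave 969.4 and 1069 (0.14), while its other 5 ran from -0.37 to -0.06. Mrps15 gave 543.0 and 541.6 (-0.0037) with its chosen probe set but 423.7 and 576.6 (0.44) with another. Mrps2 gave 259.4 and 284.1 (0.13) or 130.5 and 110.8 (-0.24). The lowest probe set of any member, a dim one of Mrpl13 with 34.8 and 19.2 (-0.86), stood beside a chosen probe set at 880.6 and 883.5.

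**Figure D4:**
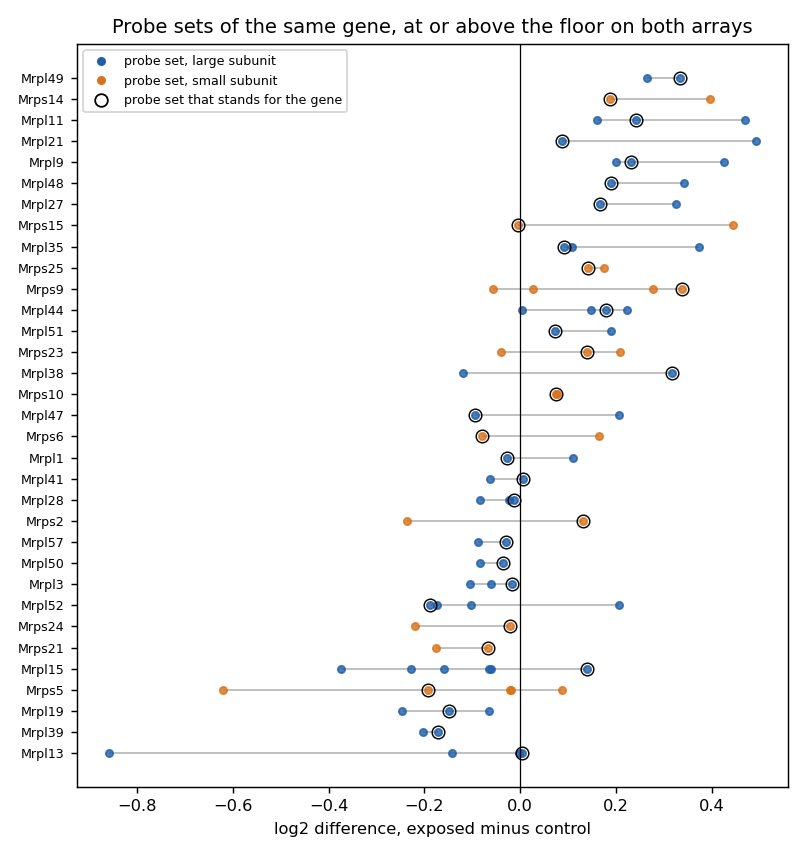
Log2 differences (x axis) of all probe sets at or above the floor on both arrays, for the 33 members with at least 2. Filled points are probe sets, open rings the probe set that stands for the gene, and lines join probe sets of a gene. In 13 genes the points lie on both sides of 0, and the widest span is that of Mrpl13.

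In 5 other lists of genes for mitochondrial gene expression, from 25% to 50% of genes were higher in exposed cells, against 48.3% of all genes compared, and whether these lists differ from the members could not be tested. Mitochondrial ribosomal proteins with other symbols were nearly equal on the arrays: Dap3 had 869.0 and 907.6 (0.06), Ptcd3 419.3 and 400.1 (-0.07), Chchd1 1039 and 994.8 (-0.06) and Gadd45gip1 374.1 and 376.9 (0.01). Of 12 translation factors above the floor, 3 were higher and 9 lower, with a median of -0.07. The lowest was the initiation factor Mtif3 (49.6 and 40.7, -0.29) and the highest Guf1, a ribosome-bound GTPase (27.2 and 39.9, 0.55). Tufm, the elongation factor that brings in aminoacyl-tRNA, had 272.5 and 293.0 (0.10), whereas its exchange factor Tsfm had 242.9 and 202.5 (-0.26).

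The mitochondrial aminoacyl-tRNA synthetases and amidotransferase genes had a median of -0.06, with 8 of 18 higher, from Ears2 (42.2 and 26.6, -0.67) to Wars2 (67.0 and 76.5, 0.19). Factors that assemble the ribosome or modify its RNA had a median of -0.07, with 12 of 27 higher. The lowest of them, the assembly GTPase Mtg2, had 189.5 and 140.7 (-0.43). The only 2 genes of these lists outside their like-level ranges were here, and both were higher: Rcc1l (61.6 and 97.8, 0.67) and Rbfa, which helps mature the small-subunit RNA (264.8 and 394.9, 0.58), each with 1 probe set. Genes of mitochondrial DNA transcription and RNA stability had a median of -0.02, with 8 of 16 higher. There the mitochondrial RNA polymerase Polrmt had 136.9 and 120.1 (-0.19), Mterf1a 138.5 and 113.1 (-0.29) and the DNA polymerase subunit Polg2 80.7 and 112.8 (0.48).

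**Figure D5:**
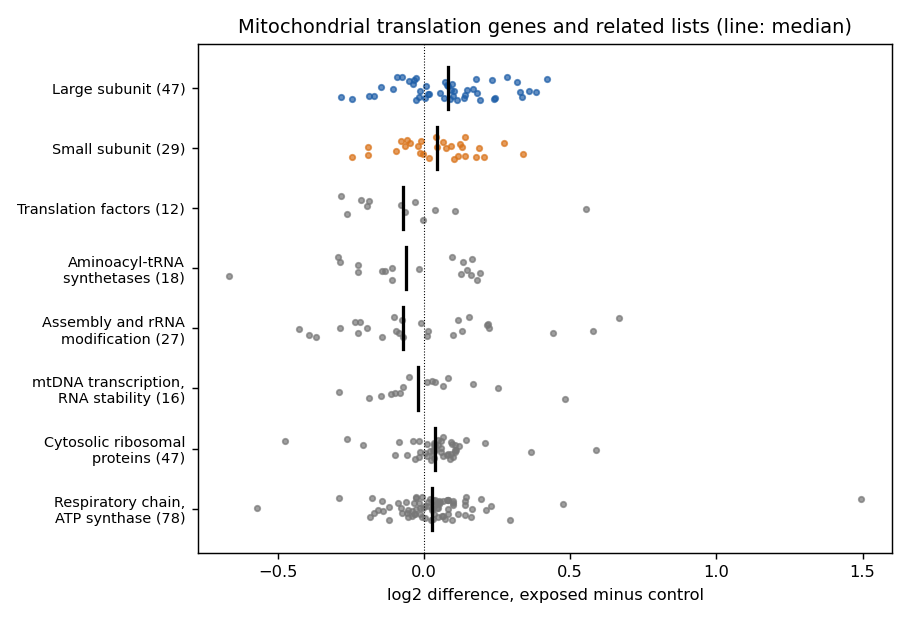
Log2 differences (x axis, RPE-exposed minus control) of genes at or above the floor on at least 1 array, in 8 lists with the number of genes in parentheses. Points are genes, spread vertically for sight only, and black lines are medians, at 0.08 and 0.05 for the ribosomal subunits and between -0.07 and 0.04 for the others.

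Genes for the cytosolic ribosome and for the respiratory chain, which holds the products of mitochondrial translation, were nearest the members in kind. The 47 genes with cytosolic ribosomal protein symbols had a median of 0.04, with 36 higher and 11 lower, from Rpl12 (-0.48) to Rps27 (0.59). Rpl12 and Rps27, with 1 probe set each, were the only genes of that list outside their like-level ranges. The 78 genes of the respiratory chain and ATP synthase had a median of 0.03, with 47 higher and 31 lower. The lowest of those above the floor on both arrays was Ndufs5 (734.7 and 601.1, -0.29). The highest was Atp5md, an ATP synthase subunit (319.7 and 900.7, 1.49), above its like-level range of -0.39 to 0.40 but with 1 probe set. With 1 array per group, differences between these families and the members could not be tested.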

How the data were processed

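Control and RPE-exposed T cells were measured on 1 array each. The deposited intensities are linear signals per probe set; how the authors summarized and scaled them is not given in the sources used here, but with 2% trimmed from each end the mean signal was 100 on both arrays. No further scaling was applied. Genes were named from GEO's platform annotation (34945 non-control probe sets with 1 gene, 932 with several, 9160 with none), and all 76 members had the same symbol in RefSeq (GRCm38.p6). Probe sets with several genes were left out. The array's build is not named, so no positions of probe sets are given; positions of promoters are RefSeq's. Log2 differences, counts past a ratio (25% higher or 20% lower, and 1.5-fold), medians and motif matches were computed with pandas 2.3.3 and numpy 2.4.6 under Python 3.11.15 and checked on simulated data. Plots used matplotlib 3.10.9. With 1 array per group no test was run, and precision is limited by that number. The members and lists were chosen with earlier results of these data known. The 7 motif spellings, kept from 14, the promoters shown, the comparison with genes in the members' signal range and the count of a signal equal to the floor as reaching it were chosen after values of these data had been seen. Named genes were the 6 highest and 6 lowest of each subunit, the members outside the like-level range, the Mrps18 paralogs and Mrpl12, and the extremes of most other lists. Further members were added for their role or their probe sets. Some markers, divergent neighbours and genes of the other lists were named as examples, without a fixed rule. Alternatives were the floor (25th or 75th percentile, or none), an offset of 16, averaged probe sets, leaving out shared-probe sets (names with _x, _s or _a), median centring and quantile normalization.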

Additional observations from a re-analysis of the deposited data

How the results depend on the processing

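The median differences of all members, of the large and of the small subunit were above 0 in all 8 alternatives, and that of all members ran from 0.03 without shared-probe sets to 0.10 after median centring. The number of members at least 25% higher was 6, but 3 with an offset of 16 and 2 with averaged probe sets, and no member was at least 20% lower in any of the 8. Floors at the 25th or 75th percentile, or none, left every member's value as it was. Added after seeing the data, a floor that must be strictly exceeded left 10995 genes compared in place of 11015, kept the medians and counts above, and put Mrpl37 within its like-level range, so the number of members outside it went from 1 to 0. Median centring raised the difference of every gene by the same amount, so the members did not move against other genes. It moved the median of all genes compared from -0.01 to 0.01. The higher members went from 49 to 55 of 76 and the share higher among all genes compared from 48.3% to 52.4%. Of the 76 members, 61 kept their sign in every alternative that gave a value and 15 did not. Averaged probe sets gave 0.20 for Mrpl54, 0.18 for Mrpl58, 0.15 for Mrps9, 0.07 for Mrpl38, -0.12 for Mrpl33, -0.08 for Mrpl17 and -0.06 for Mrpl52. Dim probe sets then count fully, and those under the floor on both arrays enter at a fixed 0.01 that is not a measured difference. The values of Mrpl54, Mrpl58 and Mrpl17 were drawn towards 0 by this alone. The lower count of members at least 25% higher with averaged probe sets was thus in part preset. Without shared-probe sets, Mrpl38 fell from 0.32 to -0.12, Mrps9 from 0.34 to 0.03, Mrpl15 from 0.14 to -0.06 and Mrpl44 from 0.18 to 0.0047. Mrpl21 then went up from 0.09 to 0.49, Mrps15 from -0.0037 to 0.44, Mrpl11 from 0.24 to 0.47, Mrps6 from -0.08 to 0.16 and Mrpl1 from -0.03 to 0.11. In that setting 4 members were at least 25% higher, namely Mrpl54, Mrpl11, Mrpl21 and Mrps15, of which only Mrpl54 was among the 6. Of the others among the 6, Mrps9 fell below 25%, while Mrpl37, Mrpl58, Mrpl49 and Mrpl20 had no value there. No paired analysis was possible because each group has 1 array.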

Other observations

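Besides the probe sets used above, 4 name a mitochondrial ribosomal protein gene together with another gene, so their signals cannot be given to either. A probe set for Mrpl30 and Gm6238 had signals of 1217 in control and 1255 in exposed cells (0.04), and another for the same pair was under the floor on both arrays (2.4 and 8.0). The probe set for Mrpl53 and Ccdc142 had 281.4 and 312.9 (0.15). That for Mrps34 and Nme3 had 124.9 and 126.0 (0.01), beside 757.2 and 857.0 (0.18) in the probe set that names Mrps34 alone.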
